A study of Mus musculus with 24 samples.

Results

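The genes described here are 10 genes of antigen presentation by MHC class I: Tap1, Tap2, Tapbp, B2m, H2-K1, H2-D1, Nlrc5, Psmb8, Psmb9 and Psmb10. They were taken by symbol from a table of estimated counts for 37620 gene rows. The 10 symbols matched 11 rows, because Psmb9 has 2, and those 2 rows were summed to 1 gene. All 10 genes passed the filter on low counts, as did 16551 genes in all.

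Polyadenylated RNA had been sequenced from jejunal crypts of 24 mice, 3 in each of 8 groups. The groups were Control mice, mice in which Nle1, the gene for Notchless, was conditionally deleted (NlecKO), mice in which Apc was (ApccKO), and mice in which both were (ApccKO;NlecKO, called the double knockout below). Crypts were collected at 24 h (day 1) and at 48 h (day 2) from induction. Every group, Control included, came from mice that were given intraperitoneal tamoxifen at 56 mg/kg on 3 consecutive days at 5 to 10 weeks of age. The Cre driver, the floxed alleles, the strain and the genotype of the Control mice are not named in the labels. Notchless is a factor needed to build the large subunit of ribosomes; APC belongs to the complex that degrades beta-catenin and so keeps Wnt target genes low.

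MHC class I molecules display peptides from inside the cell to cytotoxic T cells. Proteasomes cut proteins into peptides, and interferon exchanges the constitutive catalytic subunits of the proteasome for the induced ones encoded by Psmb8, Psmb9 and Psmb10. The transporter made of TAP1 and TAP2 carries peptides into the endoplasmic reticulum, where tapasin (Tapbp) bridges it to a heavy chain (here H2-K1 or H2-D1) paired with beta-2 microglobulin (B2m). NLRC5 is a transactivator of many of these genes, and crypt epithelium as well as lymphocytes express them.

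Libraries held 17.86 to 26.47 M estimated counts (median 19.82 M), and libraries of one group correlated at 0.9753 to 0.9884 in log2 values. Nle1 fell from 24.8 to 5.53 CPM in NlecKO crypts on day 1 and from 34.9 to 9.8 CPM in double knockout against ApccKO crypts on day 2, whereas Apc counts stayed at 130 to 147 CPM in every group, so that whole-gene counts do not check the Apc deletion. Levels are given in CPM (counts relative to the TMM-scaled library size), changes as log2 fold change ± SE, and p values are from edgeR's quasi-likelihood test, adjusted by the Benjamini-Hochberg method over all 16551 genes and called under 0.05. Markers of epithelium (10 genes, summed means of 7430 to 12000 CPM) and of the crypt base (6 genes, 933 to 5970 CPM) were present in every group. The submitters' sample codes of the Apc-lost libraries form one run between runs of Apc-intact libraries, so a batch along those codes and the loss of Apc cannot be told apart. All codes of day 1 also precede all codes of day 2, so such a batch and the day cannot be told apart either. ApccKO replicates 2 and 3 and double knockout replicate 3 of day 1 stood apart from the other libraries: the genes Gm8730 and Gm9625 were under 1 CPM in them and at 29.4 CPM or more elsewhere, and Lct, the enterocyte lactase gene, was at 295 to 455 CPM against 10.2 to 126 CPM in the other Apc-lost libraries.

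The promoters show how these genes are arranged and where they resemble each other. Psmb9, Tap1, Psmb8 and Tap2 follow each other on chromosome 17 with no other protein-coding gene between them, and Tap1 and Psmb9 are read in opposite directions from start sites separated by 225 bases. That interval is printed first because the 2 genes on its flanks responded unequally (below). The H2-K1 and H2-D1 stretches show the match between the class I heavy chains, and the B2m stretch shows the elements of the light chain gene. Sequences are from RefSeq on GRCm38.p6, each read 5′ to 3′ on the strand of the named gene. Capitals mark matches to the NF-kappaB consensus and, in B2m, also to the interferon-stimulated response element (GAAA, any 2 bases, GAAA), which comes first.
Tap1 to Psmb9 interval (chr17:34187331-34187555, plus strand): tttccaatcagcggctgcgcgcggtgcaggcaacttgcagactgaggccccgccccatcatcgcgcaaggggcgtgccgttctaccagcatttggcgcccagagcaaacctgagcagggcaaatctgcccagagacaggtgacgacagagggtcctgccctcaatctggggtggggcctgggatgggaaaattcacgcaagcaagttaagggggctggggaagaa
H2-K1 (chr17:34000408-34000507, minus strand): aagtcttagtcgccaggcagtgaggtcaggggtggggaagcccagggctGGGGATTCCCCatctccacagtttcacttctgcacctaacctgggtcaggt
H2-D1 (chr17:35262874-35262973, plus strand): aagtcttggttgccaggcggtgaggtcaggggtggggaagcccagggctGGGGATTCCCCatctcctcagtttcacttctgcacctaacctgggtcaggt
B2m (chr2:122147517-122147616, plus strand): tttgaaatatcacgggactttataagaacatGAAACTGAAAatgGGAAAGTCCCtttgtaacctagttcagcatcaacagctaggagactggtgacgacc

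Of the 10 genes, 8 were in the promoter table, with windows of 250 bases before and 50 after each start site. Motifs were sought on both strands of 32851 such windows. The NF-kappaB consensus was in 3 of the 8 genes (B2m, H2-D1 and H2-K1) and in 8.46% of all windows. The exact pattern given above for the interferon-stimulated response element was in 1 (B2m) and in 3.44% of all windows. Looser forms of this element were not sought, so H2-K1 and H2-D1 cannot be said to lack it. TTCNNNGAA, the gamma-activated sequence, was in 1 (Psmb8) and in 8.3%. The p53 consensus decamer was in 0 of the 8 and in 8.36%. With 8 genes, 0 matches cannot be told apart from that share, and sites outside the windows were not sought. In the Tap1 to Psmb9 interval none of the 4 patterns matched. The H2-K1 and H2-D1 stretches share an unbroken run of 47 bases that contains the NF-kappaB match.

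Per transcript length, in TPM (transcript abundance scaled to length and library), the light chain and the heavy chains stood highest. B2m averaged 905 TPM over the 8 groups (423 to 1550 over single libraries), H2-K1 815 TPM (479 to 1310) and H2-D1 423 TPM (295 to 603). Psmb10 followed at 150 TPM (95 to 231), Tapbp at 116 TPM (75.2 to 182), Psmb8 at 87.5 TPM (38.5 to 192), Psmb9 at 46.6 TPM (23.2 to 119), Tap1 at 38.2 TPM (14.8 to 71.8) and Tap2 at 21.6 TPM (8.85 to 36.7). Nlrc5 was the lowest at 2.19 TPM (0.495 to 5.61), and its levels rest on few counts. The library ranges of all neighbours in this order overlap except those of H2-D1 with Psmb10 and of Tap2 with Nlrc5. B2m led in Control crypts on day 1 and H2-K1 in ApccKO crypts on day 2.

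**Figure D1:**
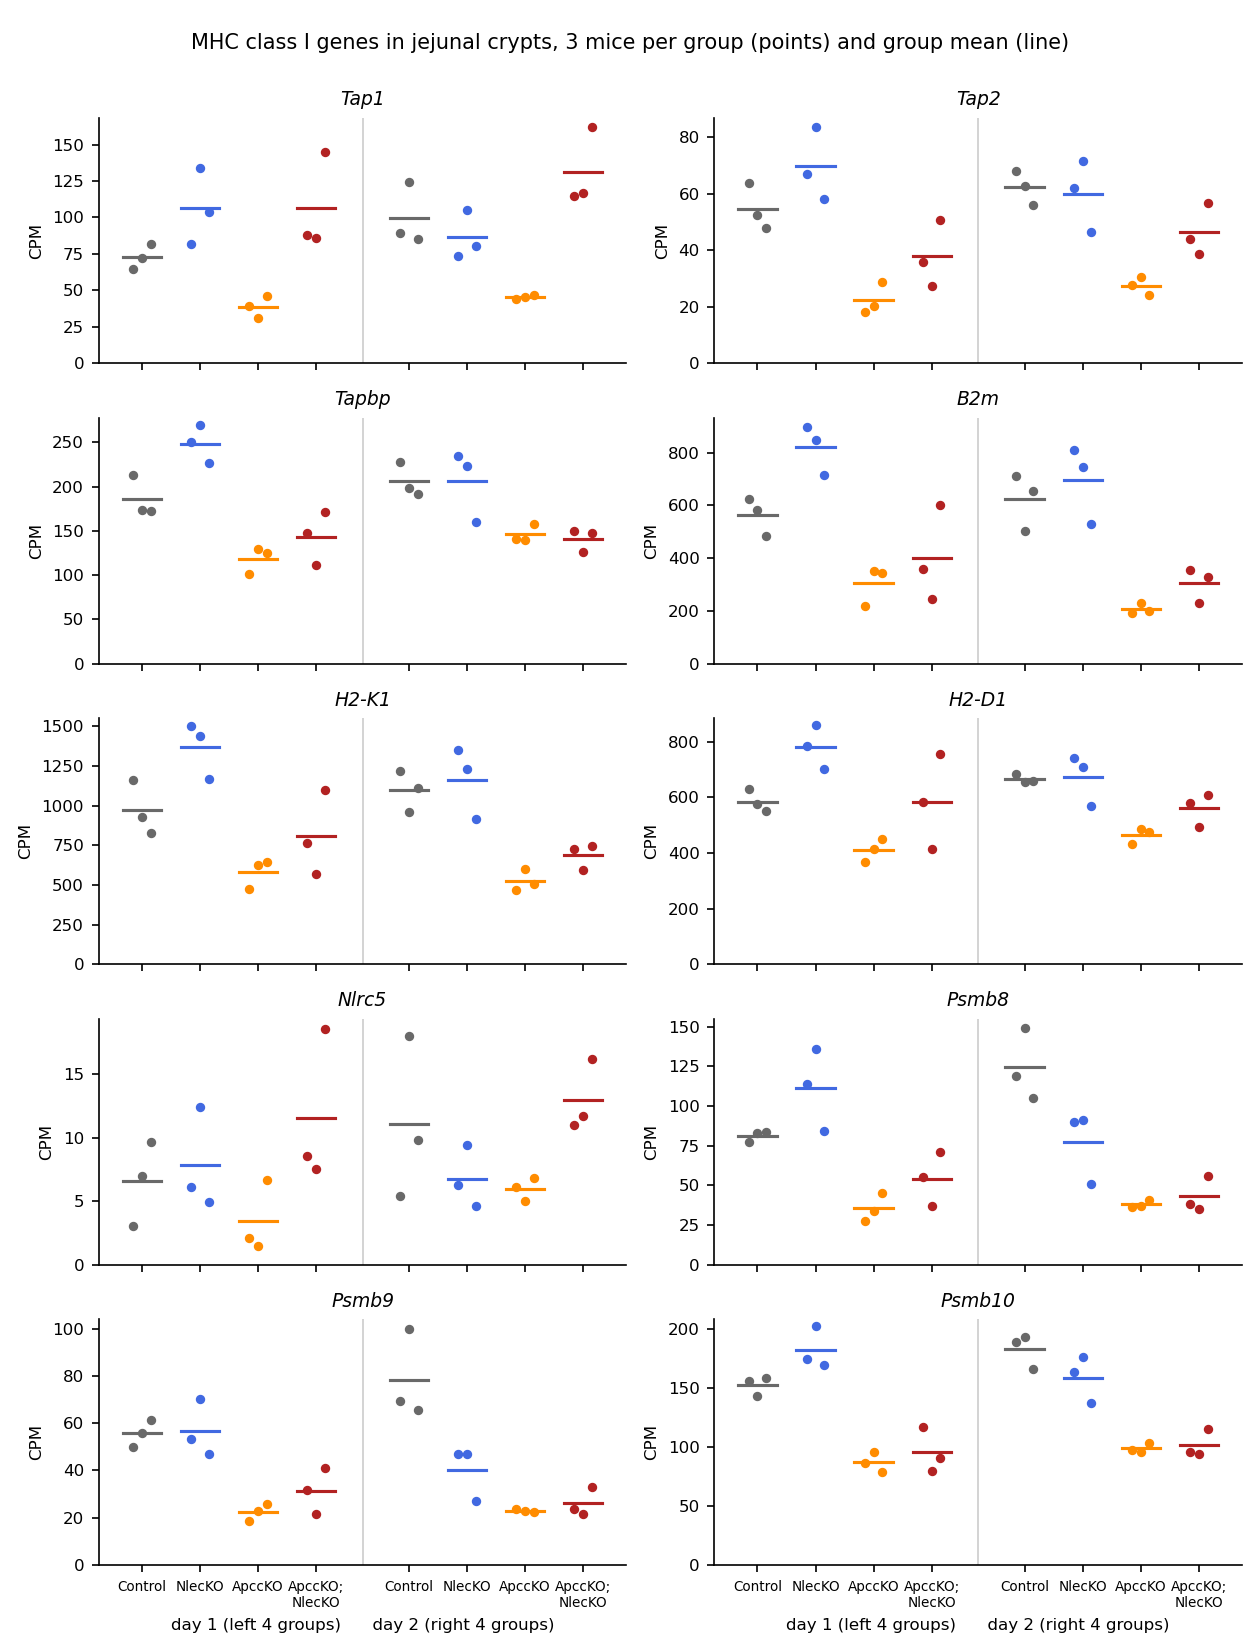
Level in CPM (vertical axis, from 0, own scale per gene) of the 10 genes in each library, with 4 genotypes on day 1 at left and on day 2 at right; points are mice and lines group means. ApccKO points lie below all Control points of the same day for every gene but Nlrc5, and the Tap1 points of the double knockout lie above those of ApccKO.

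Loss of Apc alone was accompanied by lower levels of nearly the whole set. On day 1, 9 of the 10 genes fell in ApccKO against Control crypts, where 49.7% of all genes were called in either direction and 25% were lower, and the median change was -0.90 over the 10 genes and -0.01 over all genes. On day 2 again 9 fell, with 58.6% of all genes called and 29.4% lower, and a median of -1.10 against 0.02. In both comparisons the libraries of ApccKO lay wholly below those of Control for 9 of the 10 genes, as they did for 29% of all genes on day 1 and 31.1% on day 2. Nlrc5 was the gene not called.

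Of B2m, H2-K1 and H2-D1, B2m had the largest decrease on both days. It was at 624, 583 and 484 CPM in the Control and at 220, 350 and 343 CPM in the ApccKO mice of day 1, and at 710, 502 and 656 against 194, 231 and 201 CPM on day 2. The ApccKO mice were below every Control mouse on both days, by -0.89 ± 0.26 (adjusted p = 0.0087) on day 1 and -1.58 ± 0.27 (adjusted p = 5.8e-05) on day 2. H2-K1 was at 1160, 931 and 827 CPM in Control and 477, 628 and 647 CPM in ApccKO on day 1, and at 1220, 963 and 1110 against 469, 599 and 508 CPM on day 2. This heavy chain gene fell without overlap, with changes of -0.74 ± 0.20 (adjusted p = 0.005) and -1.06 ± 0.20 (adjusted p = 0.00017). H2-D1, the other classical heavy chain, was at 629, 575 and 549 CPM in Control and 368, 415 and 450 CPM in ApccKO on day 1, and at 682, 653 and 660 against 432, 485 and 476 CPM on day 2. The groups did not overlap, and H2-D1 changed by -0.51 ± 0.15 (adjusted p = 0.0092) and -0.52 ± 0.15 (adjusted p = 0.0064). Without ApccKO replicate 1, the day 1 calls of B2m (-0.68, adjusted p = 0.059) and H2-D1 (-0.41, adjusted p = 0.061) were lost.

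H2-K1 and H2-D1 also share transcript sequence, so their counts are less certain than those of genes that share little. Of the 31-base words in GENCODE M21 transcripts, 22.8% of those of H2-K1 and 26.7% of those of H2-D1 occur in another gene, 11.1% and 13.8% in each other. The share was 4.62% or less for the other 8 genes and 0 for B2m, Nlrc5, Psmb9 and Psmb10. Neither deposited identifier of Psmb9 is that of Psmb9 in these transcripts. Its 0 therefore does not cover the uneven split of its counts between its 2 rows (below).

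Both chains of the peptide transporter fell with Apc. Tap1 was at 64.4, 71.9 and 82 CPM in Control and 39.1, 31.4 and 46.4 CPM in ApccKO crypts on day 1, and at 89.2, 124 and 85 against 44.1, 45.2 and 46.7 CPM on day 2. All ApccKO values were below all Control values, by -0.90 ± 0.23 (adjusted p = 0.003) and -1.13 ± 0.23 (adjusted p = 3e-04). Tap2 was at 63.6, 52.3 and 47.9 CPM in Control and 18.3, 20.3 and 28.8 CPM in ApccKO on day 1, and at 68.1, 62.7 and 56 against 27.6, 30.6 and 24 CPM on day 2. These groups too were apart, by -1.28 ± 0.22 (adjusted p = 0.00016) and -1.18 ± 0.22 (adjusted p = 0.00017). Tapbp, the bridge between transporter and heavy chain, changed less: its group means were 186 and 118 CPM on day 1 and 206 and 146 CPM on day 2 (-0.65 ± 0.15, adjusted p = 0.0015, and -0.50 ± 0.15, adjusted p = 0.0081).

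Of the 10 genes, the induced proteasome subunit Psmb9, with its 2 rows summed, showed the largest decrease on both days. Its lead was smaller than the SE, over Tap2 on day 1 (-1.28 ± 0.22) and over Psmb8 on day 2. Psmb8 was at 77, 83 and 83.8 CPM in Control and 27.4, 34 and 45 CPM in ApccKO crypts on day 1, and at 119, 149 and 105 against 36.1, 37.1 and 40.6 CPM on day 2. It fell without overlap, with changes of -1.20 ± 0.26 (adjusted p = 0.0012) and -1.71 ± 0.27 (adjusted p = 2.7e-05). Psmb9 was at 50, 56 and 61.2 CPM in Control and 18.8, 22.7 and 25.6 CPM in ApccKO on day 1, and at 69.4, 100 and 65.5 against 23.5, 22.7 and 22.4 CPM on day 2. It changed by -1.32 ± 0.25 (adjusted p = 0.00029) and -1.78 ± 0.25 (adjusted p = 7.7e-06), the ApccKO mice again all below Control. Psmb10 went from a mean of 153 to 86.8 CPM and from 183 to 98.7 CPM (-0.81 ± 0.13, adjusted p = 3.9e-05, and -0.89 ± 0.13, adjusted p = 6.2e-06).

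Nlrc5, the transactivator, was at 3.06, 7 and 9.64 CPM in Control and 2.09, 1.49 and 6.64 CPM in ApccKO crypts on day 1, and at 5.41, 18 and 9.8 against 6.07, 5.01 and 6.79 CPM on day 2. The groups overlapped on both days. The changes of -0.96 ± 0.57 (adjusted p = 0.18) and -0.90 ± 0.55 (adjusted p = 0.17) were not called, and without ApccKO replicate 3 the day 1 value was -1.86 (adjusted p = 0.02).

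The crypt preparations also held fewer transcripts of lymphocytes after the loss of Apc. The summed level of 19 T cell and intraepithelial lymphocyte markers was 415 to 771 CPM in Control and 123 to 258 CPM in ApccKO on day 1, and 542 to 930 against 81.1 to 100 CPM on day 2; 18 and 19 of the 19 were called lower, and none was at 0 in any group. Over 17 enterocyte markers the summed means went from 27000 to 8540 CPM on day 1 and from 28400 to 3770 CPM on day 2. Their part in the lower class I levels was not tested, and in these bulk samples fewer cells of a type and less RNA per cell cannot be told apart. Over the 24 libraries, which share the group differences, Pearson r with the lymphocyte markers was between 0.66 (H2-D1) and 0.85 (B2m) for 8 of the 10 genes, 0.40 for Tap1 and 0.19 for Nlrc5. For deviations from the group means it was 0.71 for Nlrc5 and between -0.20 (Psmb10) and 0.34 (Psmb8) for the others.

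**Figure D2:**
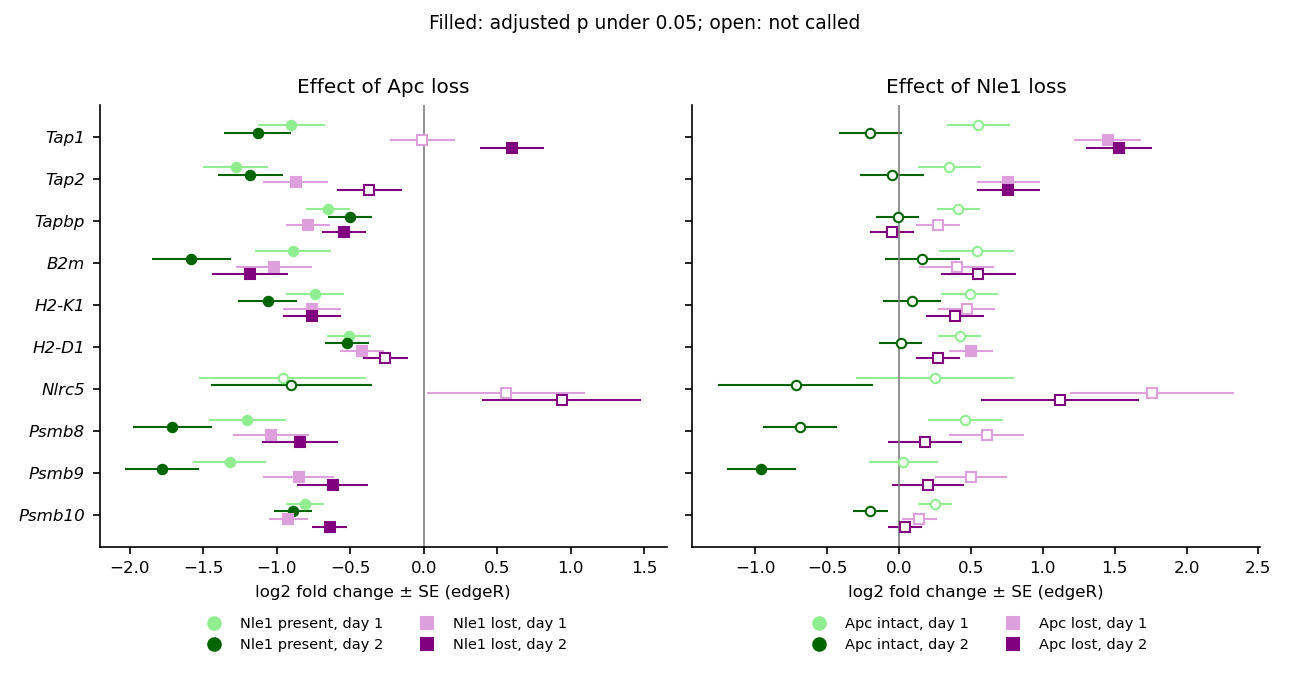
log2 fold change ± SE (horizontal axis) of the 10 genes (vertical axis) for loss of Apc (left) and loss of Nle1 (right); circles and squares give the state of the other gene, pale and dark colours day 1 and day 2, and filled symbols an adjusted p under 0.05. For loss of Apc with Nle1 present, 9 genes were called lower on each day. Tap1 had the largest called rise after loss of Nle1 in Apc-lost crypts, 1.45 on day 1 and 1.53 on day 2.

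In crypts lacking Apc, loss of Nle1 as well was accompanied by higher Tap1 and Tap2. Mean Tap1 then stood at 106 and 131 CPM on days 1 and 2, where Control crypts had 72.8 and 99.4 CPM (a difference that was not tested), and mean Tap2 at 38 and 46.3 CPM, between those of ApccKO and Control. On day 1, 3 of the 10 genes rose in the double knockout against ApccKO (10.6% of all genes were called, 5.87% higher). On day 2, 2 rose (34.9% called, 19.5% higher), a count near the share of all genes called higher. None fell on either day. The libraries of the double knockout lay wholly above those of ApccKO for 2 of the 10 genes on day 1 and 5 on day 2, against 13.7% and 29.9% of all genes.

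Tap1 was at 88.3, 85.7 and 145 CPM in the double knockout on day 1, where ApccKO mice had 39.1, 31.4 and 46.4 CPM, and at 115, 117 and 162 CPM on day 2, where ApccKO mice had 44.1, 45.2 and 46.7 CPM. Each double knockout was above each ApccKO mouse. The rise was 2.73-fold on day 1 (1.45 ± 0.23, adjusted p = 0.00058) and 2.9-fold on day 2 (1.53 ± 0.23, adjusted p = 4.6e-05). Without the 3 day 1 libraries that stood apart, which leaves 1 ApccKO library assumed to vary like the other groups, the day 1 change was 1.15 (adjusted p = 0.14); the day 2 call held in all 15 alternatives, with 1.36 as the lowest log2 change.

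Tap2 was at 35.9, 27.5 and 50.7 CPM in the double knockout on day 1 and at 43.8, 38.7 and 56.6 CPM on day 2. These values overlapped with ApccKO on day 1 and lay above it on day 2. Tap2 rose by 0.76 ± 0.22 on both days (adjusted p = 0.037 and 0.013). H2-D1 was at 582, 413 and 754 CPM on day 1, overlapping with ApccKO, and its change of 0.50 ± 0.15 was called (adjusted p = 0.039). On day 2 H2-D1 was at 580, 493 and 608 CPM, above every ApccKO mouse, with a change of 0.27 ± 0.15 (adjusted p = 0.18). Without double knockout replicate 3, the day 1 changes were 0.49 for Tap2 (adjusted p = 0.25) and 0.26 for H2-D1 (adjusted p = 0.34), and the day 2 change of Tap2 was 0.59 (adjusted p = 0.075). Without ApccKO replicate 1, 2 or 3 of day 1 or double knockout replicate 1, the day 1 call of H2-D1 was lost too (adjusted p = 0.17, 0.088, 0.062 and 0.083), and that of Tap2 without ApccKO replicate 1 or 2 or double knockout replicate 1 (adjusted p = 0.16, 0.12 and 0.062); the day 2 call of Tap2 was also lost without ApccKO replicate 3 (adjusted p = 0.056). Without the 3 libraries that stood apart, the day 1 changes were 0.79 for Tap2 (adjusted p = 0.31) and 0.43 for H2-D1 (adjusted p = 0.4).

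Nlrc5 was at 8.58, 7.56 and 18.5 CPM in the double knockout on day 1 and at 11, 11.7 and 16.2 CPM on day 2. On both days its libraries lay above those of ApccKO. The changes of 1.76 ± 0.57 (adjusted p = 0.056) and 1.12 ± 0.55 (adjusted p = 0.12) were not called. On day 1 Nlrc5 was called in 6 of 15 alternatives, DESeq2 and 5 edgeR fits, with changes of 1.24 (without double knockout replicate 3) to 2.67 (without ApccKO replicate 3) and adjusted p of 0.0086 to 0.36; on day 2 it was called in 1 of 15, the fit to only the groups compared (adjusted p = 0.00091). B2m was at 358, 247 and 602 CPM on day 1 and 357, 232 and 328 CPM on day 2 in the double knockout, with changes of 0.40 ± 0.26 (adjusted p = 0.36) and 0.55 ± 0.26 (adjusted p = 0.11). H2-K1 was at 763, 572 and 1100 CPM and at 727, 597 and 745 CPM (0.47 ± 0.20, adjusted p = 0.14, and 0.39 ± 0.20, adjusted p = 0.14). The heavy and light chain genes thus had higher group means without a call, apart from H2-D1 on day 1. Tapbp and the proteasome subunits differed by -0.05 to 0.61 and were not called.

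The summed lymphocyte markers overlapped between the Apc-lost groups on day 1, at 123 to 258 CPM in ApccKO and 169 to 212 CPM in the double knockout, with 0 of 19 called by edgeR (1 higher at an unadjusted p under 0.05). On day 2 they were at 81.1 to 100 and 142 to 189 CPM, and 10 of 19 were called higher. The summed level of 11 myeloid markers went from 26.8 to 37.4 CPM in ApccKO to 40 to 52 CPM in the double knockout on day 2, with 10 of 11 called higher (1 of 11 on day 1). Of 8 tested stromal and endothelial markers 2 were higher on day 1 and 4 on day 2, when the summed level of that list was 7.26 to 13.9 CPM in ApccKO and 18.9 to 32.9 CPM in the double knockout. Of that list Lum and Cdh5 were at 0 in ApccKO on day 1, and Lum on day 2. Enterocyte markers were higher for 0 of 17 on day 1 by edgeR (1 at an unadjusted p under 0.05) and 3 of 17 on day 2, with summed means of 3770 and 7530 CPM, and crypt base markers were lower for 3 of 6 on day 1 and 5 of 6 on day 2. The part of these cells in the class I values was not tested.

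The double knockout was also compared with NlecKO, which gives the effect of Apc loss when Nle1 is lost. Here 8 of the 10 genes fell on day 1 (52.6% of all genes called, 24.4% lower), and Tap1 (-0.01 ± 0.22, adjusted p = 0.99) and Nlrc5 (0.56 ± 0.54, adjusted p = 0.41) were not called. On day 2, 6 fell and Tap1 rose (47.9% called, 22.2% lower and 25.6% higher). B2m changed by -1.02 ± 0.26 (adjusted p = 0.0031) on day 1 and -1.18 ± 0.26 (adjusted p = 0.0012) on day 2, and H2-K1 by -0.76 ± 0.20 on both days (adjusted p = 0.0038 and 0.0043). Tapbp changed by -0.79 ± 0.15 and -0.54 ± 0.15 (adjusted p = 0.00024 and 0.0061). The proteasome subunits were lower on both days, Psmb8 by -1.04 ± 0.26 and -0.84 ± 0.26 (adjusted p = 0.0027 and 0.013), Psmb9 by -0.85 ± 0.24 and -0.62 ± 0.24 (adjusted p = 0.0066 and 0.043) and Psmb10 by -0.92 ± 0.13 and -0.64 ± 0.12 (adjusted p = 1e-05 and 0.00034). In this comparison T cell markers were lower for 17 of 19 on day 1 and 18 of 19 on day 2, and enterocyte markers for 14 of 17 and 17 of 17; their part was not tested. Tap2 and H2-D1 were called on day 1 (-0.87 ± 0.22, adjusted p = 0.0028, and -0.42 ± 0.15, adjusted p = 0.025) and not on day 2 (-0.37 ± 0.22 and -0.26 ± 0.15, each with an adjusted p of 0.17).

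Tap1 therefore stood at 115, 117 and 162 CPM in the double knockout of day 2, above the 73.4, 105 and 80.8 CPM of NlecKO (0.60 ± 0.22, adjusted p = 0.032). This call was lost without double knockout replicate 3 (0.43, adjusted p = 0.16), NlecKO replicate 1 (0.50, adjusted p = 0.12) or NlecKO replicate 3 (0.56, adjusted p = 0.085), and with no filter on low counts (0.61, adjusted p = 0.064). The day 2 calls of Psmb8 and Psmb9 were each lost without double knockout replicate 1 or 2 or NlecKO replicate 1 or 2 (adjusted p of 0.051 to 0.16). That of Psmb9 was also lost with no filter, only the groups compared, a term for sex or a replicate block (adjusted p = 0.085, 0.076, 0.06 and 0.056). The day 1 call of H2-D1 was lost without NlecKO replicate 1 or 2 or double knockout replicate 1 or 2 (adjusted p = 0.055, 0.096, 0.066 and 0.2), and with only the groups compared (adjusted p = 0.13).

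Whether loss of Nle1 acted differently with and without Apc was tested as an interaction. On day 2 it was called for 1 of the 10 genes, Tap1 (1.74 ± 0.32, adjusted p = 0.0043), where 5.24% of all genes were called and 3.29% higher: Tap1 changed by -0.20 ± 0.22 on loss of Nle1 with Apc intact and by 1.53 ± 0.23 with Apc lost. Psmb9 had an interaction of 1.16 ± 0.34 (adjusted p = 0.057), Nlrc5 of 1.84 ± 0.77 (adjusted p = 0.19), Psmb8 of 0.87 ± 0.37 (adjusted p = 0.19) and Tap2 of 0.81 ± 0.31 (adjusted p = 0.15). On day 1, 0 of the 10 were called by edgeR or DESeq2, 1 was higher at an unadjusted p under 0.05 (Tap1, 0.90 ± 0.32, adjusted p = 0.56), and 0.0121% of all genes were called.

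In crypts with Apc intact, loss of Nle1 was accompanied by no call on day 1 and by 1 gene called lower on day 2. The day 2 count is near the 8.27% of all genes called lower. On day 1, 0 of the 10 genes were called by edgeR or DESeq2, against 2.48% of all genes, and 4 were higher at an unadjusted p under 0.05. Every NlecKO mouse was nevertheless above every Control mouse for 7 of the 10 genes (9.61% of all genes), with B2m at 896, 847 and 715 CPM, H2-K1 at 1500, 1440 and 1170 CPM and H2-D1 at 783, 859 and 702 CPM in NlecKO. Their changes were 0.54 ± 0.26 (adjusted p = 0.29), 0.49 ± 0.20 (adjusted p = 0.2) and 0.42 ± 0.15 (adjusted p = 0.15). The summed enterocyte markers of these groups had means of 27000 CPM in Control and 45200 CPM in NlecKO, with overlap between mice, and the summed stromal and endothelial markers were at 12.6 to 17.3 CPM in Control and 27.9 to 43 CPM in NlecKO, with 1 of 8 called higher. Their part was not tested. The T cell markers overlapped, at 415 to 771 and 418 to 727 CPM.

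On day 2 the same heavy and light chain genes were near Control: B2m was at 808, 746 and 529 CPM, H2-K1 at 1350, 1230 and 916 CPM and H2-D1 at 740, 707 and 567 CPM in NlecKO, all overlapping with Control. The gene called was Psmb9, at 47, 46.9 and 27.2 CPM in NlecKO against 69.4, 100 and 65.5 CPM in Control (-0.96 ± 0.24, adjusted p = 0.011), where 15.6% of all genes were called and 8.27% lower. Psmb8, at 90, 91.2 and 50.6 against 119, 149 and 105 CPM, did not overlap with Control either (-0.69 ± 0.26, adjusted p = 0.08). The Psmb9 call was lost without Control replicate 2 (-0.75, adjusted p = 0.066), without NlecKO replicate 3 (-0.74, adjusted p = 0.071) and when only the 2 groups compared were fitted (-0.95, adjusted p = 0.092).

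No gene of the set was called between the days. Day 2 against day 1 gave 0 of 10 calls by edgeR and DESeq2 in Control (0.145% of all genes called), NlecKO (0.0363%), ApccKO (11.4%) and the double knockout (6.5%); at an unadjusted p under 0.05 the count was 1 in Control (Psmb8, 0.61 ± 0.26, adjusted p = 0.42) and 0 in the others. In Control, every mouse of day 2 was above every mouse of day 1 for 5 of the 10 genes (Tap1, H2-D1, Psmb8, Psmb9 and Psmb10), against 5.91% of all genes, with changes of 0.19 to 0.61. The effect of Apc loss differed between days for 0 of 10 (1.13% of all genes; 0 at an unadjusted p under 0.05). The effect of Nle1 loss with Apc intact differed for 0 of 10 (0.00604% of all genes), with 4 lower at an unadjusted p under 0.05, among them Psmb8 (-1.15 ± 0.36, adjusted p = 0.2) and Psmb9 (-0.99 ± 0.34, adjusted p = 0.23).

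Tap1 and Psmb9, the neighbours that flank the printed 225-base interval, can be compared as a ratio of CPM within each library. CPM is not scaled to transcript length, so this ratio serves to compare groups and does not rank the 2 genes. Per length Psmb9 stood above Tap1, at 46.6 against 38.2 TPM over the 8 groups. The CPM ratio of Tap1 to Psmb9 was 1.28 to 1.34 in Control mice of day 1 and 1.24 to 1.3 in those of day 2. In ApccKO mice the ratio was 1.38 to 2.09 on day 1 and 1.88 to 2.09 on day 2, and in NlecKO mice 1.54 to 2.22 and 1.56 to 2.98. The double knockout had the highest ratios, 2.77 to 3.98 on day 1 and 4.84 to 5.4 on day 2, above every library of the other groups of the same day. The pair was chosen with these values known, so the ratio is given without a test.

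**Figure D3:**
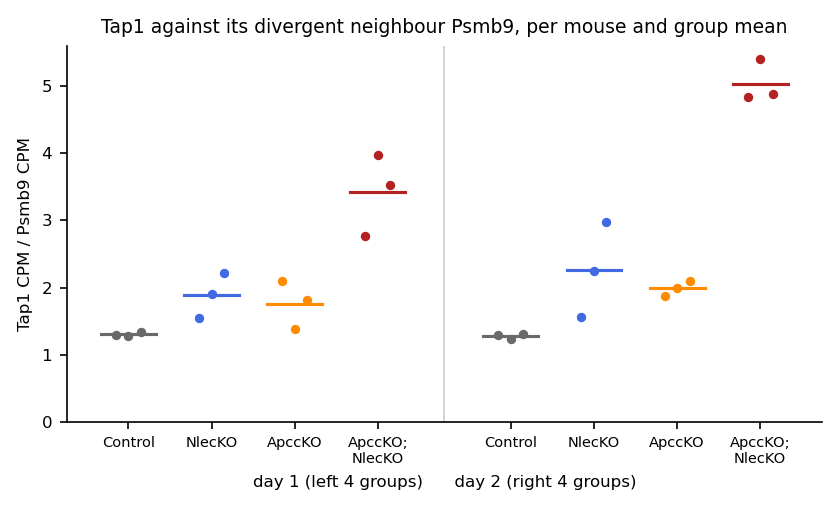
Ratio of Tap1 CPM to Psmb9 CPM (vertical axis, from 0) in each mouse (points) with group means (lines), 4 genotypes on day 1 at left and day 2 at right. Control mice lie between 1.24 and 1.34, and the double knockout of day 2 between 4.84 and 5.4.

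For the proteasome, the RNA of each induced subunit was set against that of the constitutive one it replaces, as a ratio of TPM. These ratios come from RNA of bulk crypts and do not measure the exchange of subunits in proteasomes. The part of the lower lymphocyte transcripts of ApccKO crypts in them was not tested. Psmb8 stood to Psmb5 at 0.6 ± 0.0071 (SD, n = 3) in Control on day 1 and 0.999 ± 0.087 on day 2, and at 0.225 ± 0.066 and 0.213 ± 0.014 in ApccKO. Psmb9 stood to Psmb6 at 0.23 ± 0.028 and 0.345 ± 0.084 in Control and 0.0919 ± 0.02 and 0.101 ± 0.0039 in ApccKO, and Psmb10 to Psmb7 at 1.02 ± 0.03 and 1.36 ± 0.16 against 0.548 ± 0.037 and 0.677 ± 0.087. In all 3 pairs the Control and ApccKO mice were apart on both days. The double knockout had ratios of 0.295 ± 0.14 and 0.228 ± 0.06 for Psmb8, 0.125 ± 0.042 and 0.105 ± 0.02 for Psmb9 and 0.588 ± 0.071 and 0.657 ± 0.064 for Psmb10, each overlapping with ApccKO. In NlecKO of day 2 the Psmb8 ratio was 0.558 ± 0.21 and the Psmb9 ratio 0.164 ± 0.055, both below Control in every mouse. On day 1 the NlecKO ratios were 0.87 ± 0.21 for Psmb8 and 1.39 ± 0.16 for Psmb10, both above Control in every mouse, and 0.228 ± 0.044 for Psmb9, overlapping with Control. Between Control mice of day 1 and day 2 all 3 ratios were apart, the day 2 values being higher.

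**Figure D4:**
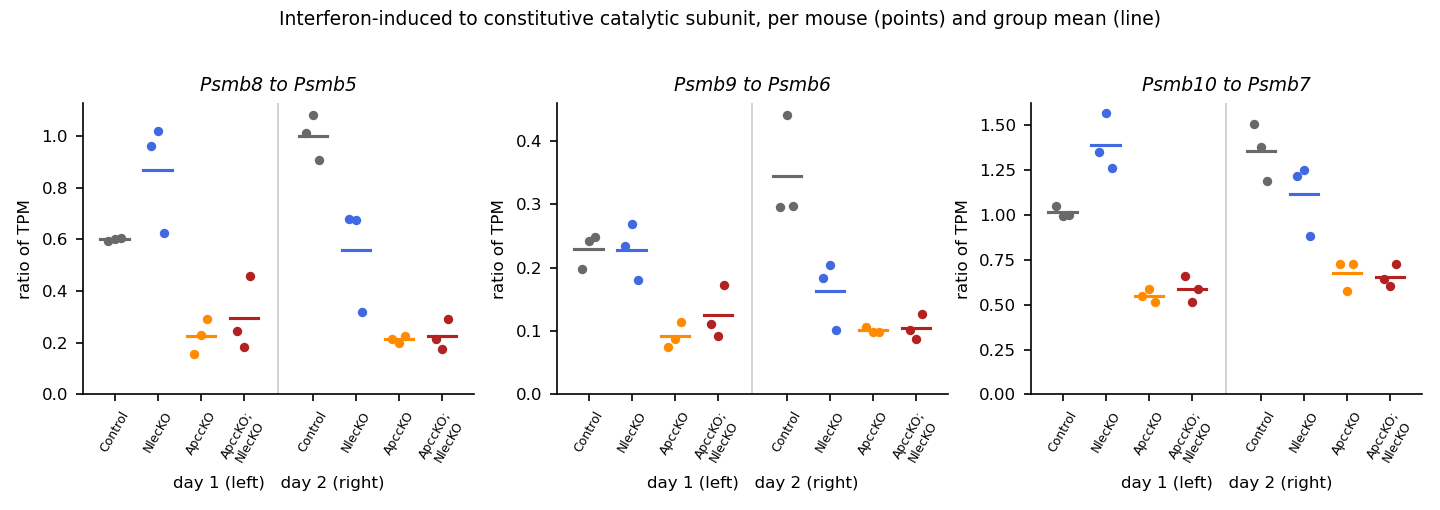
TPM of the induced subunit divided by that of the constitutive subunit (vertical axes, from 0) in each mouse (points) with group means (lines), day 1 at left and day 2 at right in each panel. The Psmb8 to Psmb5 ratio is 0.999 on average in Control and 0.213 in ApccKO crypts on day 2.

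Psmb9 needs care, because its 2 rows, ENSMUSG00000024337 and ENSMUSG00000092299, shared its counts very unequally between mice. The second row held 9.18% of the summed count in NlecKO replicate 1 and 95.5% in double knockout replicate 3 of day 1, and mice of one group differed widely, from 11.3% to 46.2% in the Control mice of day 1. Neither identifier is that of Psmb9 in GENCODE M21, so what separates the rows was not resolved here. Tested as deposited, the first row was lower in ApccKO against Control on day 2 (-3.91 ± 0.93, adjusted p = 0.0017) and the second was not called there (-0.66 ± 0.91, adjusted p = 0.56). The other calls of the summed gene were lost for both rows: loss of Apc on day 1 (adjusted p = 0.15 and 0.35), loss of Apc with Nle1 lost on day 1 (0.28 and 0.63) and day 2 (0.86 and 0.39), and loss of Nle1 with Apc intact on day 2 (0.23 and 0.82). In the ApccKO mice of day 2 the summed counts were 542, 503 and 481, of which the second row held 91.9%, 72.2% and 94.5%.

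**Figure D5:**
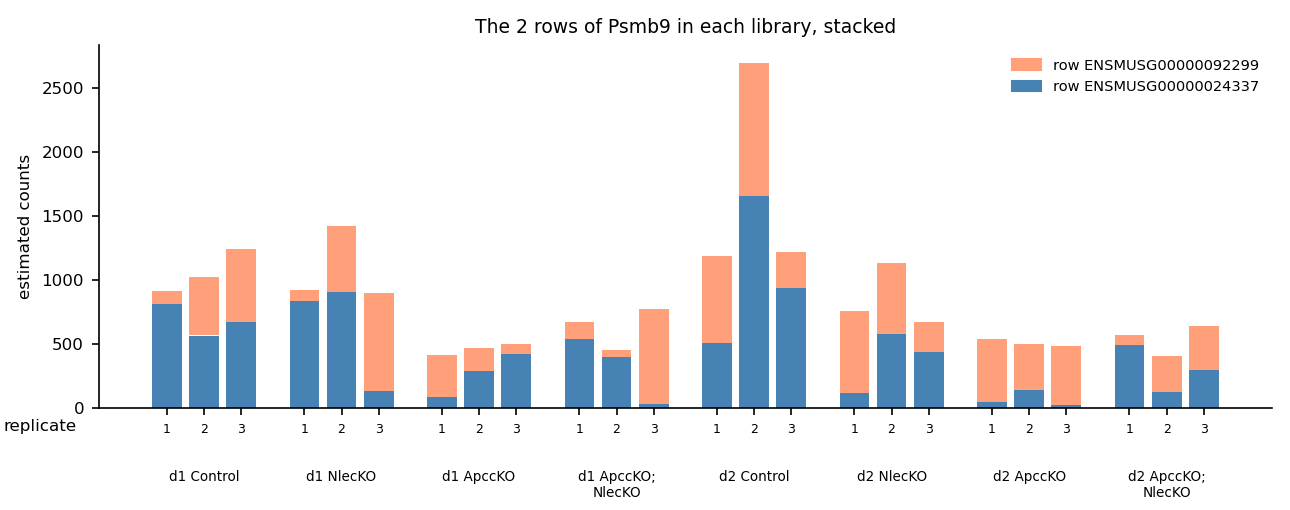
Estimated counts (vertical axis, from 0) of the 2 Psmb9 rows, stacked, in each of the 24 libraries, which are ordered by group and replicate. The split between the rows differs between mice of one group, from 9.18% to 95.5% in the second row over all mice.

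Other genes of the pathway were taken as lists, whose counts for ApccKO against Control stand beside the 49.7% of all genes called on day 1 and 58.6% on day 2, and for the double knockout against ApccKO beside 10.6% and 34.9%. Of 17 tested genes for further heavy chains that pair with B2m, 12 fell in ApccKO against Control on day 1 and 12 fell and 1 rose on day 2. Fcgrt, the neonatal Fc receptor, changed from 71.6 to 17.1 CPM on day 1 (-2.07 ± 0.33, adjusted p = 8.7e-05) and from 71.5 to 16.2 CPM on day 2 (-2.14 ± 0.33, adjusted p = 2.9e-05). H2-T3, which encodes the thymus leukaemia antigen of intestinal epithelium, changed from 110 to 9.88 CPM on day 2 (-3.48 ± 0.56, adjusted p = 4.7e-05), and H2-T22 from 25.1 to 11.4 CPM (-1.14 ± 0.20, adjusted p = 7.9e-05); H2-T22 shares 47.2% of its 31-base words with H2-T10. On loss of Nle1 in Apc-lost crypts 0 of the 17 rose and 3 fell on day 2, among them Cd1d1, a lipid-presenting molecule, from 5.21 to 1.47 CPM (-1.81 ± 0.26, adjusted p = 2.3e-05).

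Few genes of the constitutive proteasome were called. Of its 14 genes 1 rose and 1 fell in ApccKO against Control on day 1, and 2 rose and 1 fell on day 2, with Psmb5 going from 81 to 116 CPM (0.51 ± 0.10, adjusted p = 0.00029). Of 7 genes for the proteasome activator and assembly, both subunits of the interferon-inducible activator fell on both days: Psme2 from 201 to 122 CPM and from 249 to 123 CPM (-0.72 ± 0.11, adjusted p = 4.2e-05, and -1.02 ± 0.11, adjusted p = 2.9e-07), and Psme1 by -0.44 ± 0.10 and -0.52 ± 0.10 (adjusted p = 0.00097 and 0.00013). The assembly chaperone Psmg2 rose on both days (0.43 ± 0.10, adjusted p = 0.0021, and 0.27 ± 0.10, adjusted p = 0.029).

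Of 9 genes for peptide trimming and loading, 1 rose and 4 fell in ApccKO on day 1. That share is near that of all genes called (49.7%, with 25% lower). On day 2, 1 rose and 7 fell (58.6% of all genes called, 29.4% lower). Tapbpl, the tapasin-related editor, changed from 45.7 to 24.5 CPM on day 1 (-0.90 ± 0.12, adjusted p = 1.2e-05), while Thop1, a cytosolic peptidase that degrades antigenic peptides, went from 64.7 to 108 CPM (0.73 ± 0.16, adjusted p = 0.0011). In the double knockout against ApccKO 0 rose and 2 fell on day 1, the chaperones Calr (901 to 698 CPM, -0.37 ± 0.08, adjusted p = 0.0048) and Pdia3 (712 to 573 CPM, -0.31 ± 0.08, adjusted p = 0.019). On day 2, 2 rose and 0 fell, the peptidases Npepps (0.29 ± 0.06, adjusted p = 0.00055) and Lnpep (0.33 ± 0.08, adjusted p = 0.0046).

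A list held 17 genes of interferon gamma signalling and of the factors that bind class I promoters. In ApccKO 3 of them rose and 8 fell on day 1, where 49.7% of all genes were called and 25% were lower. On day 2, 3 rose and 7 fell, a share near that of all genes called (58.6%, with 29.4% lower). Irf2 changed from 65.2 to 40.2 CPM on day 1 (-0.70 ± 0.11, adjusted p = 4.6e-05) and from 73.7 to 35.2 CPM on day 2 (-1.06 ± 0.11, adjusted p = 1.3e-07), and Irf1, an interferon-induced activator, from 134 to 83.8 CPM on day 1 (-0.68 ± 0.14, adjusted p = 0.00059). Rfxap, a subunit of the RFX complex on class I promoters, rose on both days (0.65 ± 0.12, adjusted p = 0.00018, and 0.75 ± 0.12, adjusted p = 1.8e-05). In the double knockout against ApccKO 1 rose and 1 fell on day 1, where 10.6% of all genes were called. On day 2, 4 rose and 1 fell, where 34.9% of all genes were called and 19.5% were higher. On both days the count is near the share of all genes called. Rfx5, a subunit of the RFX complex that NLRC5 joins, changed from 19.3 to 33.6 CPM on day 1 (0.80 ± 0.12, adjusted p = 0.00039) and from 23.3 to 38.5 CPM on day 2 (0.72 ± 0.12, adjusted p = 0.00013).

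Within groups the 10 genes did not vary as one block. For deviations from the group means over the 24 libraries, which share any remaining differences in cell makeup, Pearson r was 0.96 between B2m and H2-K1, 0.96 between Psmb8 and Psmb9, and 0.80 between Tap1 and Nlrc5. Tap1 with B2m and with H2-K1 gave 0.20 each, and Psmb10 with Nlrc5 gave 0.10. These are descriptions without a test. Over all 24 libraries, the genes outside the set whose log2 level was most like the mean standardised level of the 10 were H2-T22 (r = 0.97), Uba7, H2-T23, Trim12c and Arhgap17 (each 0.93) and Col20a1, Ttc38 and Mocos (each 0.92).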

How the data were processed

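Per the submitters' processing notes, kallisto 0.43 and the mm9 build were used, with DESeq2 and DESeq for normalised values, which were not used here. The authors deposited estimated counts and TPM per gene; the sources used here name no annotation release and no rule for summing transcripts. Here the estimated counts were rounded, the 2 Psmb9 rows summed, and genes kept by edgeR's filter (minimum count 10), scaled by TMM and fitted with 1 mean per group over 24 libraries by edgeR 4.0.16 (limma 3.58.1, R 4.3.3). Log2 CPM used a prior count of 2; the TPM levels had no pseudocount. The biological coefficient of variation was 17.6%, and each library came from 1 mouse. Deposited TPM values served for levels and ratios. The 16 comparisons were Apc loss, Nle1 loss, their interaction and day. The 10 genes and the lists were chosen with earlier results of these data known. All 10 are named wherever called; of each list up to 4 called genes with the smallest p. The procedure was tested on simulated data. Alternatives were DESeq2 1.42.0, its size factors, 2 filters, a replicate block, a fit to only the groups compared, a term for sex, leaving out libraries, a pseudocount of 1 TPM for the ratios and, added after seeing the data, the Psmb9 rows as deposited. One gene of the lists is not reported here by name.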

Additional observations from a re-analysis of the deposited data

Results flagged for a closer look

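The effect of Nle1 loss on Tap1 differed between crypts with and without Apc on day 2, by a test of the difference itself: the interaction was 1.74 ± 0.32 on the log2 scale (adjusted p = 0.0043 by edgeR), and over its 21 alternatives it was 1.55 to 1.90 with an adjusted p of 1.2e-05 to 0.016.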

How the results depend on the processing

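No result changed direction while called. The number of genes called after Nle1 loss with Apc lost on day 1 (3) was 1 with no filter, 1 with only the groups compared and 0 without the 3 libraries that stood apart. After Nle1 loss with Apc intact on day 2 (1) it was 2 by DESeq2, 0 with only the groups compared and 0 with the Psmb9 rows as deposited. After Nle1 loss with Apc lost on day 2 (2) it was 5 with only the groups compared, and for the interaction on day 2 (1) it was 2 by DESeq2. Leaving out each library in turn gave 1 to 6 for Nle1 loss with Apc lost on day 1, where the 6 came without double knockout replicate 2, and 1 to 2 on day 2. It gave 0 to 1 on day 2 for Nle1 loss in Apc-intact crypts, 7 to 10 and 9 to 9 for Apc loss with Nle1 present on days 1 and 2, 7 to 8 and 4 to 6 for Apc loss with Nle1 lost, 1 to 1 for the interaction on day 2 and 0 to 0 for the others; the 4 came without NlecKO replicate 1. The cause was not tested. The labels do not say what the replicate numbers mark. In no pair of groups did all same-numbered libraries correlate above 0.1 in their deviations from the group means. With 3 mice per group this cannot show whether the numbers mark a litter, day or batch. With the replicate block the counts were 2 for Nle1 loss with Apc lost on day 1, 6 for Apc loss with Nle1 lost on day 2 and otherwise the same. Under the block Tap2 and H2-D1 lost their day 1 calls for Nle1 loss (adjusted p = 0.055 and 0.053), where Nlrc5 gained one, and Psmb9 lost its day 2 call for Apc loss with Nle1 lost (adjusted p = 0.056). Depth limits Nlrc5 most, at 1.49 to 18.5 CPM.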
